A study of Homo sapiens with 6 samples.

Results

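The 85 genes described here encode the proteins of the cytosolic ribosome. They were chosen from the 57819 genes of the deposited table by name, as the protein-coding rows called RPSA, RPLP0, RPLP1, RPLP2, or RPL or RPS followed by a number and at most a letter A, X or L with a digit. Of these genes 52 belong to the large subunit and 33 to the small subunit. Names that end in L without a digit, such as RPL3L, RPL10L, RPL39L and RPS27L, were taken as members. The rule itself uses names alone, although the set was picked with earlier results of these data known.

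RNA was sequenced from IMR90 ER:Ras cells, which are human lung fibroblasts. They carry an oncogenic Ras fused to an estrogen receptor domain and switched on by 4-hydroxytamoxifen (4OHT). All 6 libraries came from cells given 200 nM 4OHT for 3 days. The 3 control libraries carried a scrambled siRNA (siSCR), and the 3 knockdown libraries siRNA directed at sin-lncRNA, a long noncoding RNA (sin-lncRNA KD). All libraries came from 1 cell line. The knockdown columns share a single siRNA label, which does not say whether 1 siRNA or a mix was used. The labels do not say whether replicates were separate cultures, so p-values measure only the spread between these libraries, which may be technical.

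The cytosolic ribosome translates every nuclear-encoded mRNA, and its subunits assemble in the nucleolus from ribosomal RNA and roughly equal amounts of each protein. Most vertebrate ribosomal protein mRNAs begin with a cytosine followed by a run of pyrimidines, the 5′ terminal oligopyrimidine (TOP) tract, through which mTOR and LARP1 control their translation. A few members have paralogs, near copies that can stand in for them in the ribosome, and several ribosomal proteins not bound in ribosomes, RPL5 and RPL11 foremost, bind the ubiquitin ligase MDM2. Ras-induced senescence of fibroblasts is known to alter ribosome assembly.

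The start sites of 12 members that the results turn on are shown first, because the tract at the start is what most members share by sequence. Each line holds 15 bases before and 15 bases from the RefSeq transcription start of GRCh38.p14, read 5′ to 3′ on the gene's strand, with the tract in capitals.
RPL22L1: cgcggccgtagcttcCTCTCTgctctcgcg
RPS21: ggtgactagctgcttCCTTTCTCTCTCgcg
RPL41: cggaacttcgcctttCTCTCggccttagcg
RPL18: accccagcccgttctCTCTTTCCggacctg
RPLP0: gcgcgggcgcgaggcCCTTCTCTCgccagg
RPSA: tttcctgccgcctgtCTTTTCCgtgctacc
RPS6: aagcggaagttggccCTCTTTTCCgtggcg
RPL22: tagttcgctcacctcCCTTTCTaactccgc
RPS27: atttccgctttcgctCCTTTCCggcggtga
RPS27L: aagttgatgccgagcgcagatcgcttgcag
RPL17: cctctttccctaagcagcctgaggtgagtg
RPL4: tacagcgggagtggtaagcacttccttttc
The 9 upper sequences hold a tract of 5 to 12 bases at the annotated start, and the last 3 hold none there: RPS27L, the one called higher, and RPL17 and RPL4, both called lower. The windows lie at chr3:170870181-170870210 (minus strand) for RPL22L1, chr20:62387088-62387117 (plus) for RPS21, chr12:56116618-56116647 (plus) for RPL41, chr19:48619164-48619193 (minus) for RPL18 and chr12:120201097-120201126 (minus) for RPLP0. Those of the other 7 are chr3:39406705-39406734 (plus) for RPSA, chr9:19380222-19380251 (minus) for RPS6, chr1:6199581-6199610 (minus) for RPL22, chr1:153990747-153990776 (plus) for RPS27, chr15:63157463-63157492 (minus) for RPS27L, chr18:49492451-49492480 (minus) for RPL17 and chr15:66504841-66504870 (minus) for RPL4.

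A RefSeq window was matched for 67 of the 85 members. Some genes have several windows, and a tract or motif was counted where any of them held it. A tract, defined as a C at the annotated start followed by at least 4 further C or T, was present in 47 of these 67 (70.1%), and in 1404 of 27305 gene symbols in the same table (5.14%). The letters CCGGAAG, the core bound by ETS-family factors, were sought on either strand from 250 bases before to 50 after the start. They stood in 24 of the 67 members (35.8%), against 12.2% of all symbols. The letters AAGATGG, the core bound by YY1, were found in 9 of 67 (13.4%) against 7.11%. These are matches of letters and not measured sites.

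The libraries held 30271192 to 50913672 reads in genes in the controls and 22117324 to 27882280 in the knockdowns. Levels are given as RPM, the reads of a gene scaled by the authors' effective library size (CPM without an offset), and 3 reads correspond to 0.0589 to 0.136 RPM. The target, sin-lncRNA (listed as RP4-530I15.6), stood at 3.70, 4.73 and 4.09 RPM in the controls and at 0.493, 0.640 and 0.534 RPM in the knockdowns, without overlap. It fell by 2.86 on the log2 scale, with an SE of 0.18 (adjusted p = 7.9e-07 by limma with Benjamini-Hochberg adjustment). All 10 fibroblast markers examined were at 1 RPM or more, their summed level was 17016 to 19012 RPM in the controls and 13071 to 14186 RPM in the knockdowns, and blood markers were near 0 (0 of 6 at 1 RPM, HBB at 0). Epithelial markers summed to at most 2.47 RPM in any library (1 of 6 at 1 RPM, KRT5 at 0), the 4 endothelial markers to 1.76 to 2.78 RPM (1 of 4), and the 4 smooth muscle markers to 118 to 119 RPM in the controls and 101 to 109 RPM in the knockdowns (3 of 4). The part of these levels in the results below was not tested. In bulk RNA, fewer cells of a type and less RNA per cell cannot be told apart, and RPM is a share of each library rather than an amount per cell.

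Cytosolic ribosomal protein mRNAs took a smaller share of the reads after sin-lncRNA knockdown. They made up 2.28%, 2.16% and 2.27% of the reads in genes in the 3 controls and 2.01%, 2.08% and 2.12% in the 3 knockdowns. Every knockdown library lay below every control, and the nearest pair was control replicate 2 with knockdown replicate 3. The means were 2.24 ± 0.065% and 2.07 ± 0.055% (SD, n = 3 each). Both subunits followed this order of means, with 1.41 ± 0.044% against 1.298 ± 0.028% for the large subunit and 0.830 ± 0.022% against 0.773 ± 0.027% for the small one.

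**Figure D1:**
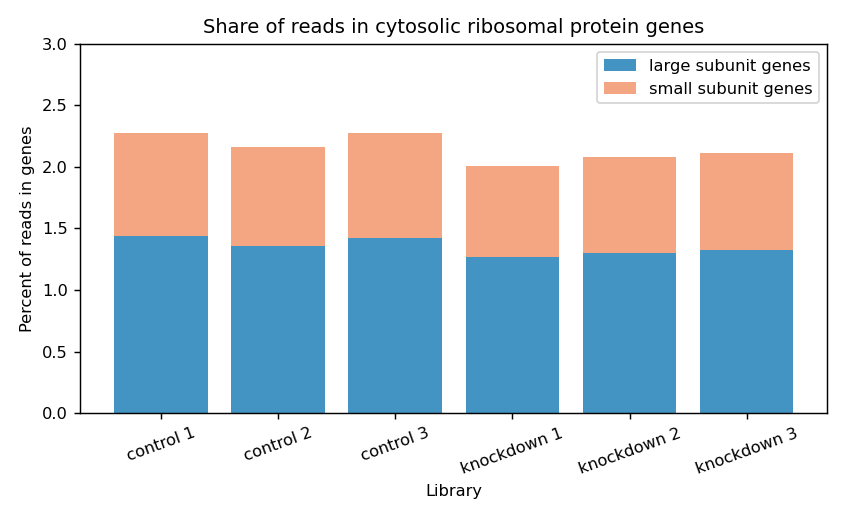
Bars give the percent of reads in genes that fell in cytosolic ribosomal protein genes in each of the 6 libraries, stacked by large subunit (blue) and small subunit (orange). The 3 controls stand at 2.16 to 2.28% and the 3 knockdowns at 2.01 to 2.12%.

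Gene by gene the falls were small and numerous, and those that passed the test ran in 1 direction with a single exception. Of the 85 members 83 reached a mean of 10 normalized reads and so were tested. At an adjusted p under 0.05 (limma over all 19048 genes tested, Benjamini-Hochberg) 34 members were lower and 1, RPS27L, was higher in the knockdown. The 35 called members are 42.2% of those tested, near the 41.0% called over all genes and below the 48.6% called over protein-coding genes, so the number of calls by itself says nothing about the members. By direction, 41.0% of the members were lower where 23.5% of all genes and 26.4% of protein-coding genes were. Higher calls took 1 of 83 members against 17.5% of all genes and 22.2% of protein-coding genes.

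Median change over the members was a log2 fold change of −0.13 (quartiles −0.23 and −0.06), beside −0.04 over all genes tested and −0.03 over protein-coding genes. Values below 0 were found for 74 members and above 0 for 9. Only 2 members, RPL22L1 and RPL17, moved by at least 0.5 in either direction (2.41%, against 17.7% of all genes). Among the 34 that fell, 8 had a log2 fold change of −0.3 or below, 14 lay between −0.3 and −0.2, and 12 were nearer to 0. With the trends on GC content and transcript length taken out of each library, 26 members were lower and 5 higher of 82 with these properties, and the median was −0.06 beside −0.02 over all genes.

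**Figure D2:**
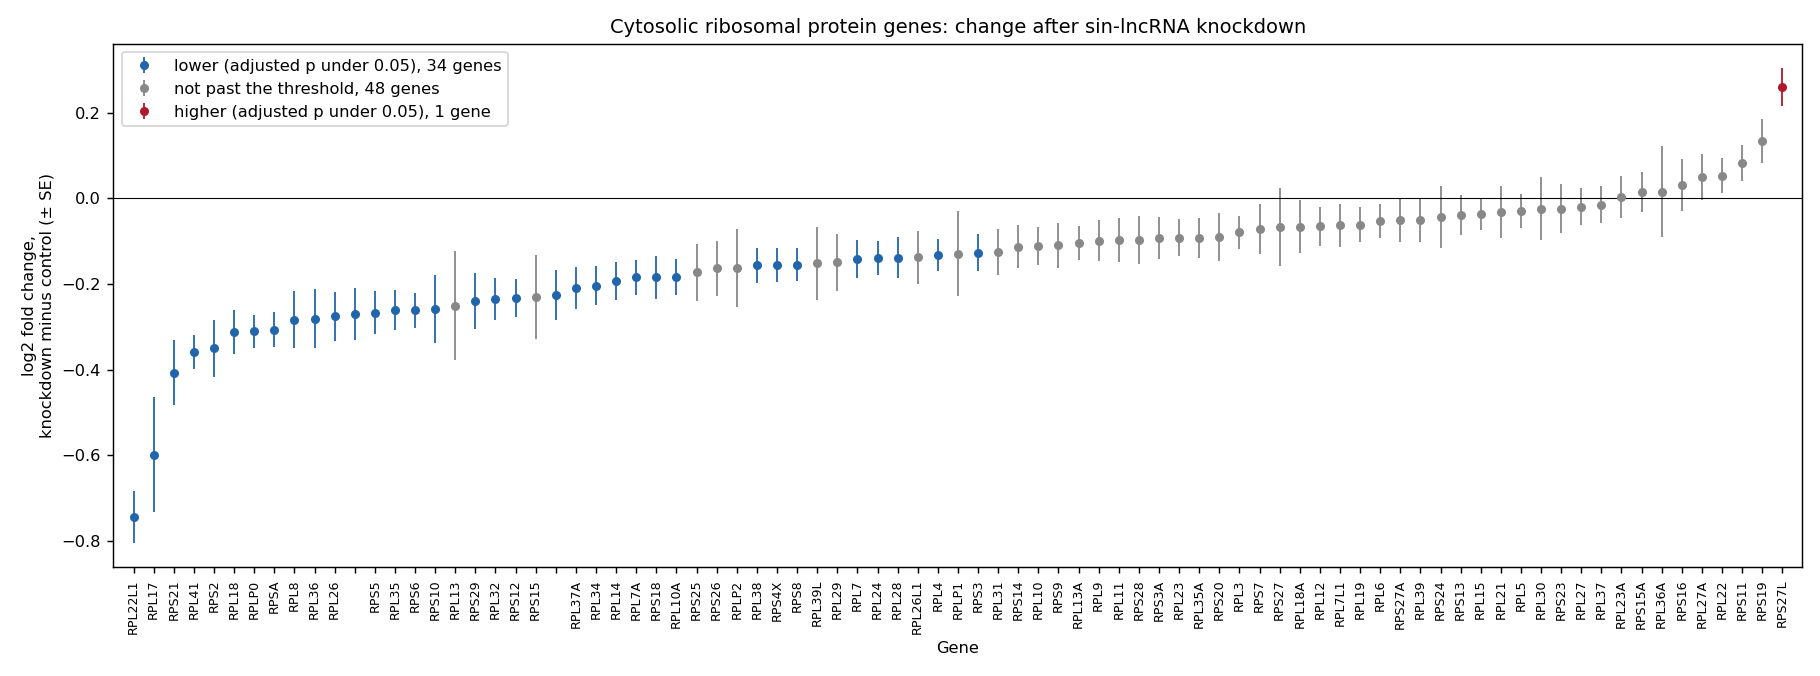
Each point is the log2 fold change (knockdown minus control) of 1 of the 83 tested ribosomal protein genes with its standard error, ordered by size. The 34 genes that passed the threshold downwards are blue, RPS27L is red, and 48 genes that did not pass are grey, 40 of them below 0 and 8 above, and a few names are left off the axis.

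The order of the libraries was counted as well. In 43 of the 83 members (51.8%) all 3 knockdown libraries were below all 3 controls, against 28.3% of all genes. RPS27L was the only member whose knockdown libraries were all above the controls, an order seen in 22.8% of all genes. The median deviation of the members from the control mean was 0.01, −0.04 and 0.04 in the controls and −0.16, −0.10 and −0.10 in the knockdowns on the log2 scale.

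The 2 subunits showed similar counts: 20 of 50 large subunit genes and 14 of 33 small subunit genes were lower, each with a median of −0.13. Members with a TOP tract at the annotated start included 21 lower and 0 higher of 47 (median −0.14). Members with a window but no tract at that base included 6 lower and 1 higher of 19 tested (median −0.10). A pyrimidine run beginning elsewhere in the window was not counted as a tract. Of the lower members with a window 77.8% held a tract, and of the uncalled ones 68.4% did. The members that carry a snoRNA gene inside them, 29 genes with 60 annotated snoRNA rows, included 9 lower (median −0.09), and the 54 without one included 25 lower and 1 higher (median −0.15). None of these differences between subsets was tested.

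RPL22L1 fell furthest of all members. It is the paralog of RPL22, a large subunit protein that binds RNA and is known to restrain its paralog's mRNA. RPL22L1 (ENSG00000163584.13, chr3:170582664-170588272 on the minus strand in hg19) stood at 63.7, 66.7 and 74.2 RPM in the controls and at 41.1, 39.4 and 41.4 RPM in the knockdowns. The 3 knockdown values lay close together and far below the lowest control. The log2 fold change was −0.74 ± 0.061 (SE; limma adjusted p = 5.5e-06), leaving 59.6% of the control level. No other row of the table overlaps this gene, and no pseudogene row carries its name.

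RPL22 itself did not pass the test. Its controls were 159, 158 and 164 RPM and its knockdowns 162, 167 and 171 RPM, so the groups overlapped (log2 fold change 0.05 ± 0.042, limma adjusted p = 0.34). Reads of RPL22L1 amounted to 40.1%, 42.2% and 45.2% of those of RPL22 in the controls and to 25.4%, 23.6% and 24.2% in the knockdowns. The mean ratio of the pair was 42.5 ± 2.5% in the controls and 24.4 ± 0.91% in the knockdowns (SD, n = 3), without overlap, a log2 difference of −0.80. Its exact permutation p was 0.1, two-sided, the smallest that 3 against 3 libraries allow.

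RPS27L was the only member called higher in this fit. It is the paralog of the small subunit protein RPS27. RPS27L (ENSG00000185088.8, chr15:63418071-63450220 on the minus strand in hg19) stood at 120, 114 and 113 RPM in the controls and at 139, 142 and 134 RPM in the knockdowns. Each knockdown library was above each control. The log2 fold change was 0.26 ± 0.045 (limma adjusted p = 0.00094), or 120% of the control level, and 0.17 with GC and length trends removed, still past the threshold. The table's row for LACTB, on the opposite strand, overlaps it at 25.4 RPM on average, and the strand setting of the counting is not known.

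Its partner RPS27 did not pass the test: controls were 57.2, 53.3 and 61.9 RPM and knockdowns 47.1, 56.0 and 62.2 RPM (log2 fold change −0.07 ± 0.092, limma adjusted p = 0.60). The knockdown libraries spanned the whole control range. RPS27L reads were 210%, 214% and 183% of RPS27 reads in the controls and 294%, 255% and 216% in the knockdowns. This is a log2 difference of 0.33 with an exact permutation p of 0.1. Pseudogene rows hold 50.5% of the reads assigned to RPS27 and its pseudogenes, which limits the accuracy of this ratio.

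**Figure D3:**
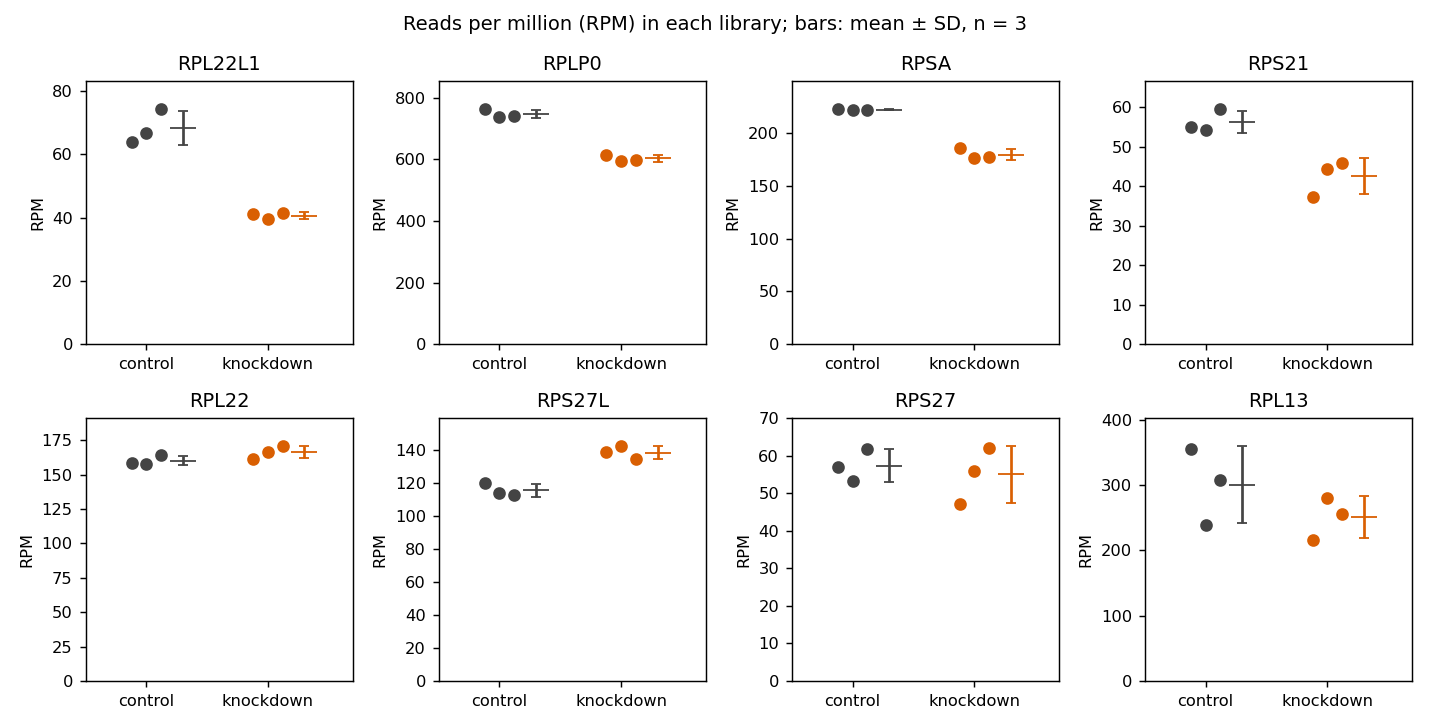
Points are RPM in each library for 8 members, with horizontal ticks and bars for the mean and SD of the 3 control (grey) and 3 knockdown (orange) libraries. RPL22L1, RPLP0, RPSA and RPS21 separate downwards and RPS27L upwards, whereas the groups overlap for RPL22, RPS27 and RPL13.

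The other paralog pairs showed smaller differences. RPL26, a large subunit protein near the exit of the nascent chain, fell from 162 ± 10.5 to 133 ± 6.6 RPM (log2 fold change −0.28 ± 0.057, limma adjusted p = 0.0027), and RPL26L1 went from 18.7 ± 0.54 to 17.0 ± 0.46 RPM (−0.14, adjusted p = 0.10). RPL7 fell from 147 ± 5.7 to 133 ± 1.6 RPM (−0.14 ± 0.043, adjusted p = 0.023), and RPL7L1, which acts in assembly of the large subunit, did not pass (−0.06, adjusted p = 0.34). RPL7 kept its call in 14 of 21 other fits. Among the fits that lost it were those without control replicate 3 (−0.11), knockdown replicate 2 (−0.14) or knockdown replicate 3 (−0.13). So were the fit with no filter on low values (limma adjusted p = 0.053) and scaling without ribosomal protein genes (−0.12, adjusted p = 0.052). RPL39, a protein of the exit tunnel, and RPL39L, its paralog known from testis, had log2 fold changes of −0.05 and −0.15 (adjusted p = 0.46 and 0.18). RPL10, which is placed late in assembly, had −0.11 (adjusted p = 0.065) and passed without knockdown replicate 3 (−0.15). RPL10L and RPL3L, known from testis and from muscle, had at most 2 reads in any library and were not tested.

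The ratio of paralog to partner had an exact permutation p of 0.2 for the RPL26 pair, 0.3 for the RPL7 pair and 0.1 for the RPL39 pair. RPL36AL, whose name falls outside the rule for members, fell from 104 ± 1.9 to 93.8 ± 2.7 RPM (−0.15 ± 0.044, limma adjusted p = 0.020). RPL36AL no longer passed in several other fits, among them the one with no filter on low values (limma adjusted p = 0.055). Omitting knockdown replicate 1 (−0.12), control replicate 2 (−0.14) or control replicate 3 (−0.14) also removed the call. RPL36A stood at only 3.85, 3.86 and 3.95 RPM in the controls and 4.21, 3.80 and 3.78 RPM in the knockdowns, with overlap. Pseudogene rows named for RPL36A hold 81.4% of the reads of that family. With them added, its log2 fold change went from 0.02 to −0.17 (adjusted p = 0.068).

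Among the remaining large falls, RPS21 is a small protein of the small subunit. RPS21 (ENSG00000171858.13, chr20:60962172-60963576, plus strand, hg19) stood at 54.9, 54.1 and 59.4 RPM in the controls and 37.3, 44.4 and 45.8 RPM in the knockdowns. Knockdown replicate 1 was lowest, and the groups did not overlap. The log2 fold change was −0.41 ± 0.076 (limma adjusted p = 0.0015).

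RPL41, the shortest protein of the ribosome, gave an even separation. RPL41 (ENSG00000229117.4, chr12:56510370-56511727, plus strand, hg19) stood at 165, 161 and 167 RPM in the controls and 126, 128 and 130 RPM in the knockdowns. All 3 knockdown libraries were well below the controls, with little spread in either group. The log2 fold change was −0.36 ± 0.040 (limma adjusted p = 5.3e-05).

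RPS2 lines the mRNA entry side of the small subunit. RPS2 (ENSG00000140988.11, chr16:2012053-2014861, minus strand, hg19) stood at 513, 415 and 461 RPM in the controls and 351, 375 and 360 RPM in the knockdowns. The controls spread more than the knockdowns, yet the groups did not overlap (log2 fold change −0.35 ± 0.067, limma adjusted p = 0.0017). With GC and length trends removed the value was −0.17 (adjusted p = 0.0052).

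RPL18, a protein of the large subunit surface, stood at 366, 326 and 352 RPM in the controls and 268, 289 and 284 RPM in the knockdowns (ENSG00000063177.8, chr19:49118585-49122793, minus strand, hg19). Again the highest knockdown lay below the lowest control. The log2 fold change was −0.31 ± 0.051 (limma adjusted p = 0.00066), and −0.11 with GC and length trends removed (adjusted p = 0.017).

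RPL17, which lies near the exit tunnel, is the member whose fall depended most on how reads were assigned. RPL17 (ENSG00000265681.2, chr18:47014851-47018906, minus strand, hg19) stood at 9.72, 9.02 and 11.2 RPM in the controls and 5.51, 6.36 and 8.01 RPM in the knockdowns. The groups did not overlap, and the log2 fold change was −0.60 ± 0.13 (limma adjusted p = 0.0045). Pseudogene rows named for RPL17 hold 88.4% of the reads of the family. With these added, the log2 fold change was −0.20 ± 0.050 (limma adjusted p = 0.0089).

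The ribosomal stalk recruits translation factors and consists of RPLP0 with pairs of RPLP1 and RPLP2. RPLP0, its base, stood at 763, 739 and 741 RPM in the controls and 615, 595 and 599 RPM in the knockdowns. The groups were far apart with little spread (log2 fold change −0.31 ± 0.038, limma adjusted p = 9.3e-05; −0.21 with GC and length trends removed, still past the threshold). RPLP1 was at 409, 293 and 361 RPM in the controls and 296, 343 and 326 RPM in the knockdowns. RPLP2 was at 224, 172 and 207 RPM and at 163, 196 and 177 RPM. Both overlapped between groups, with control replicate 2 lowest of the controls, and neither passed (−0.13 and −0.16, adjusted p = 0.33 and 0.18). Without control replicate 2 both passed, at −0.26 (limma adjusted p = 0.0075) and −0.27 (adjusted p = 0.0076). Whether RPLP0 changed differently from RPLP1 and RPLP2 was not tested.

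RPSA, a protein of the small subunit also known as a laminin receptor, stood at 223, 222 and 222 RPM in the controls and 186, 176 and 177 RPM in the knockdowns. The control libraries were almost equal (SD 0.578 RPM on a mean of 222 RPM), and every knockdown lay below them (−0.31 ± 0.040, limma adjusted p = 0.00014). A second row, RPSAP58, is listed as protein-coding although its name is that of a pseudogene, was not a member, and fell from 235 ± 2.1 to 208 ± 10.4 RPM (−0.18, adjusted p = 0.0083). RPS6, the small subunit protein phosphorylated by S6 kinase downstream of mTOR, stood at 677, 692 and 713 RPM and at 571, 568 and 599 RPM. It separated without overlap as well (−0.26 ± 0.041, limma adjusted p = 0.00049).

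RPL5, RPL11 and RPL23, which bind MDM2 when free of ribosomes, did not pass the test. RPL5 was at 397, 421 and 417 RPM in the controls and 402, 398 and 411 RPM in the knockdowns (−0.03, limma adjusted p = 0.60). RPL11 was at 450, 456 and 487 RPM and at 415, 424 and 465 RPM (−0.10, adjusted p = 0.16). For RPL5 and RPL11 the groups overlapped. RPL23 was at 354, 334 and 357 RPM and at 334, 316 and 331 RPM, with every knockdown below every control by a narrow margin (−0.09, adjusted p = 0.11).

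By mean RPM the 3 most abundant members were RPL3, RPL4 and RPLP0. RPL3, which reaches toward the peptidyl transferase centre, stood at 830, 811 and 816 RPM in the controls and 752, 781 and 792 RPM in the knockdowns. The knockdowns were all lower, but the change did not pass (−0.08 ± 0.039, limma adjusted p = 0.13). RPL4, a protein of the exit tunnel wall, stood at 816, 780 and 804 RPM and at 736, 722 and 732 RPM, and it passed (−0.13 ± 0.038, limma adjusted p = 0.017). RPL4 kept the call in 14 of 21 other fits. Among the fits that lost it were quantile normalization (−0.083, limma adjusted p = 0.12) and scaling without ribosomal protein genes (−0.11). So were those without control replicate 3 (−0.13), knockdown replicate 2 (−0.12) or knockdown replicate 3 (−0.13).

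Several further members were named after their values were seen. RPS19, whose mutation causes Diamond-Blackfan anaemia, had the second highest log2 fold change at 0.13 ± 0.052 and did not pass (limma adjusted p = 0.060). Its controls were 429, 411 and 426 RPM and its knockdowns 428, 491 and 472 RPM, so knockdown replicate 1 lay inside the control range. RPS19 was called higher in 8 of 21 other fits, among them quantile normalization (0.19, adjusted p = 0.011), scaling without ribosomal protein genes (0.16, adjusted p = 0.028), GC and length trends removed (0.22) and omission of knockdown replicate 1 (0.19). RPL13 had the widest scatter over the controls. It was at 356, 238 and 308 RPM in the controls and 216, 281 and 255 RPM in the knockdowns, and the groups overlapped (−0.25 ± 0.13, adjusted p = 0.14).

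Scatter between replicates of the same group was larger for some members than the typical change. The coefficient of variation over the 3 controls had a median of 4.02% (0.260 to 19.7%) and over the 3 knockdowns a median of 4.35% (0.159 to 19.2%). The highest control values were 19.7% for RPL13, 16.5% for RPLP1, 14.1% for RPS15 and 13.2% for RPLP2. Members also shifted together by library. In control replicate 3 there were 69 of 82 members above their group mean and in control replicate 2 only 14, while knockdown replicate 1 had 19 and knockdown replicate 3 had 59.

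Deviations of single libraries were also compared with transcript GC content, which ranged from 41.9 to 63.1% over 82 members. Pearson correlations across genes between a member's deviation from its group mean and its GC content were 0.49 in control replicate 1, −0.39 in control replicate 2, −0.35 in knockdown replicate 1 and 0.45 in knockdown replicate 2. In replicate 3 of the controls and of the knockdowns they were −0.18 and 0.02. The log2 fold change between groups had a correlation of −0.14 with GC content, −0.01 with coding length and 0.17 with mean level. Genes share libraries and are not independent replicates, so no p is given, and the part of GC content in the scatter was not tested.

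**Figure D4:**
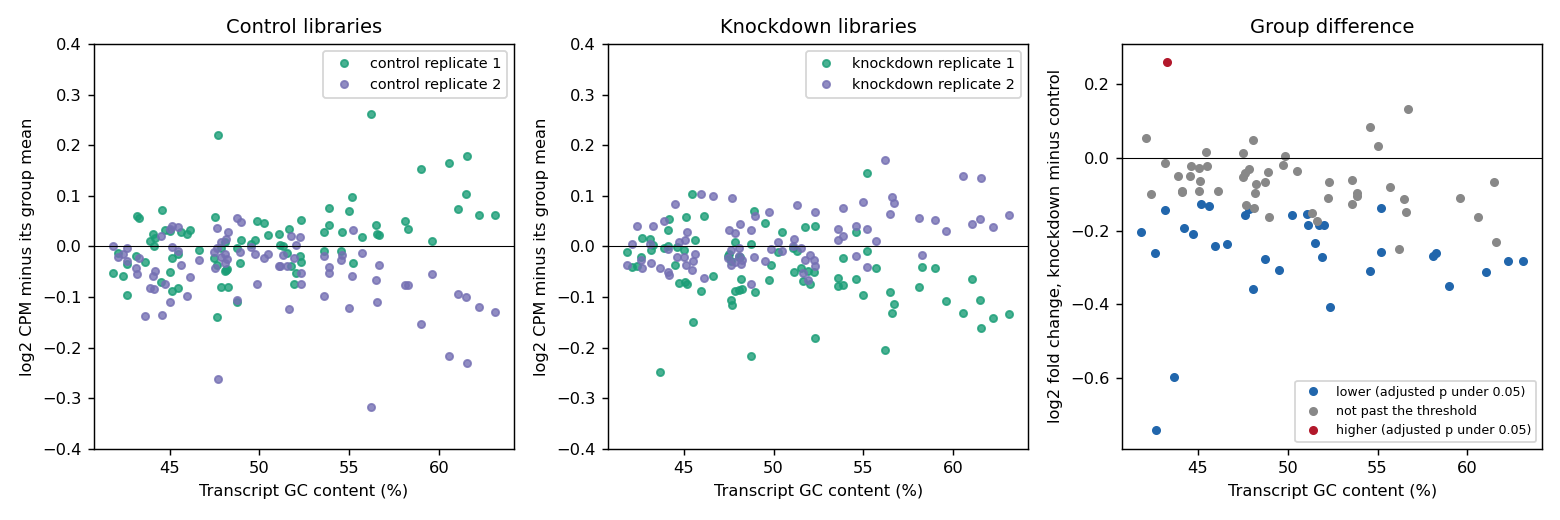
Left and middle panels plot, for 82 members, the deviation of log2 CPM from the group mean against transcript GC content (percent) in replicates 1 and 2 of the controls and of the knockdowns; the right panel plots the log2 fold change between groups. The GC-rich members lie above 0 in control replicate 1 and below 0 in control replicate 2 (r of 0.49 and −0.39), in the reverse order in the knockdowns (−0.35 and 0.45), and the group difference has an r of −0.14.

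Members' reads are hard to assign with 50 bp reads. For 75 members the table lists pseudogene rows of the same name, 815 rows in all, and for 50 members those rows hold at least 10% of the reads of member and pseudogenes together. Pseudogene rows took 1.21 ± 0.034% of the reads in the controls and 1.11 ± 0.019% in the knockdowns. Of the 331 pseudogene rows tested, 99 were lower and 7 higher (29.9% and 2.11%, beside 23.5% and 17.5% of all genes, median −0.16). With pseudogene reads added to each member, 38 members were lower and 1 higher, all 35 calls were kept, and RPL3, RPL13A, RPS3A and RPS26 passed in addition.

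Overlapping rows leave other members uncertain. RPL36A, RPL17 and RPS10 had the lowest levels per kilobase of coding sequence among members other than the untested ones, at 12.3, 15.04 and 26.6 RPM per kb against a median of 466. Each overlaps a readthrough row on its own strand (RPL36A-HNRNPH2, RPL17-C18orf32 and RPS10-NUDT3) that is listed at 0 in every library. RPS10 passed at −0.26 (adjusted p = 0.024) and at −0.13 with its pseudogene reads added (adjusted p = 0.042). It lost the call in 7 of 21 other fits, among them GC and length trends removed (−0.12, adjusted p = 0.27), quantile normalization (−0.22) and omission of control replicate 2 (−0.24), control replicate 3 (−0.26), knockdown replicate 2 (−0.24) or knockdown replicate 3 (−0.21). In all, 58 members overlap another row and 27 overlap none; of the 25 tested among these, 10 were lower and 0 higher (median −0.15).

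Proteins of the mitochondrial ribosome, which translates the mitochondrial genome, are encoded by other nuclear genes. Of the 76 such genes 74 were tested, and the median was −0.13. Lower were 29 (39.2%) and higher 2 (2.70%), beside 23.5% and 17.5% of all genes. Their counts and median were close to those of the cytosolic set, and a difference between the sets was not tested.

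**Figure D5:**
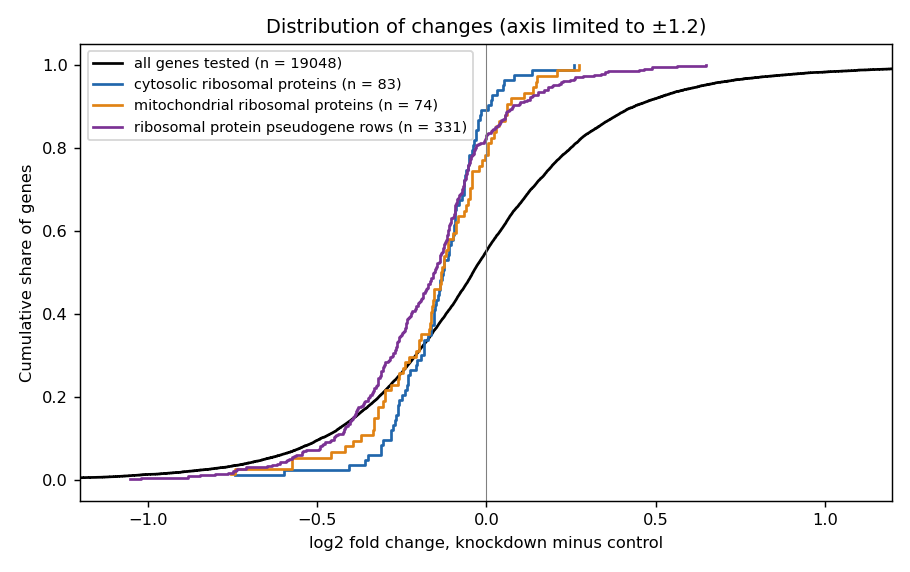
Curves give the cumulative share of genes (vertical axis, 0 to 1) by log2 fold change between knockdown and control for all 19048 genes tested, 83 cytosolic ribosomal protein genes, 74 mitochondrial ones and 331 ribosomal protein pseudogene rows. The cytosolic curve is narrow with a median of −0.13, and the curve of all genes is wide with a median of −0.04.

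Other genes taken to have TOP mRNAs, translation factors among them, were examined from a list chosen by function. Their start sequences were not examined here. Of 23 tested, 11 were lower and 2 higher (47.8% and 8.70%, beside 23.5% and 17.5% of all genes, median −0.08). EEF1A1, which brings aminoacyl-tRNA to the ribosome, fell from 2605 ± 82.0 to 1835 ± 35.5 RPM (−0.50 ± 0.042, limma adjusted p = 6.1e-06), and VIM, the fibroblast intermediate filament, fell by 0.40 on the log2 scale. TMEM59 rose by 0.22 (0.12 with GC and length trends removed, still past the threshold) and NAP1L1 by 0.12 (limma adjusted p = 0.0012 and 0.0496). NAP1L1 lost its call in several other fits, among them 5 of the 6 single-library omissions. It had −0.05 with GC and length trends removed. FAU and GNB2L1 (RACK1), which encode ribosomal proteins under other names, had log2 fold changes of −0.29 and −0.16 and passed.

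Translation initiation factors included 15 lower and 1 higher of 38 (39.5% and 2.63%, beside 23.5% and 17.5% of all genes, median −0.08). EIF5A, which relieves stalled ribosomes, fell from 361 ± 9.9 to 215 ± 5.6 RPM (−0.75 ± 0.041, limma adjusted p = 4.5e-07). EIF2B3 fell as well (−0.54), and EIF2B5, another subunit of the same exchange factor, rose by 0.20 (limma adjusted p = 0.032). The call of EIF2B5 was lost in several settings, among them without control replicate 1 (0.15) or knockdown replicate 3 (0.14). Of 14 noncoding snoRNA host genes 6 were lower and 1 higher (42.9% and 7.14%, beside 23.5% and 17.5% of all genes, median −0.18). SNHG8 was at −0.38, SNHG7 at −0.35 and EPB41L4A-AS1 at 0.39. SNHG7 was at −0.16 with GC and length trends removed and no longer passed (adjusted p = 0.21). The rise of EPB41L4A-AS1 was not called without knockdown replicate 2 or knockdown replicate 3 (0.34 each). Some genes stand in more than 1 list.

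Regulators of ribosomal protein synthesis went both ways, with 6 lower and 3 higher of 18 (33.3% and 16.7%, beside 23.5% and 17.5% of all genes; median −0.06). MYC, a transcription factor known to drive ribosome genes, fell from 39.3 ± 1.3 to 26.9 ± 1.3 RPM (log2 fold change −0.545, limma adjusted p = 3.3e-05). MXD1, an antagonist of MYC, fell too (−0.50). TSC1, an inhibitor of mTOR signalling, and RPS6KB1, a kinase of RPS6, rose by 0.34 and 0.24 on the log2 scale (limma adjusted p = 0.00028 and 0.0026), the latter by 0.12 with GC and length trends removed. RPS6KB2, the other S6 kinase, fell from 26.3 ± 0.61 to 20.3 ± 1.1 RPM (−0.375, limma adjusted p = 0.00069). Carriers that escort ribosomal proteins included 4 lower and 1 higher of 13 (30.8% and 7.69%, beside 23.5% and 17.5% of all genes, median −0.10). GRWD1 was at −0.31, KPNB1 at −0.24 and TNPO1 at 0.23.

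Genes that link the 5S particle with MDM2 included 4 lower and 3 higher of 9 (44.4% and 33.3%, beside 23.5% and 17.5% of all genes, median −0.14). MDM2 rose from 106 ± 5.9 to 185 ± 7.1 RPM (0.80 ± 0.051, limma adjusted p = 1.1e-06), and MDM4 rose by 0.65. RPF2, which loads the 5S particle, fell (−0.36). CDKN2A passed narrowly (−0.59, limma adjusted p = 0.044) and lost the call in several other fits. Among these were the omissions of control replicate 1 (−0.35), control replicate 3 (−0.56), knockdown replicate 1 (−0.49) and knockdown replicate 3 (−0.54). Genes of ribosome stress and quality control included 4 lower and 3 higher of 19 (21.1% and 15.8%, near the shares of all genes; median −0.02). TCF25 and DDRGK1 were lower (−0.45 and −0.35) and ASCC3 and NEMF higher (0.31 and 0.19), NEMF not without knockdown replicate 3 (0.16) or with GC and length trends removed (0.065, adjusted p = 0.25). The latter setting gave −0.19 for DDRGK1 and 0.18 for ASCC3, both still past the threshold.

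How firmly single members stand was read from 21 other fits of the same data. Of the 35 called members 19 kept their call and sign in every one, namely RPS27L and 18 of the 34 lower ones. Among those 18 are RPL22L1, RPL17, RPS21, RPL41, RPS2, RPL18, RPLP0, RPSA, RPS6 and RPL26. Omitting control replicate 3 gave the fewest lower members of the single-library omissions, 24, and omitting control replicate 2 gave the most, 42.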

How the data were processed

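PolyA RNA of 6 libraries was sequenced as single 50 bp reads, per the labels' protocols. The submitters' processing notes list Bowtie2, featureCounts and hg19. Strand setting and annotation release are not given in the sources used here. The authors deposited log2 CPM values with an offset of 0.5 reads. Undoing the offset gave whole reads (within 0.01) for 100% of the values, and RPM was computed from these on the authors' effective sizes, 0.989 to 1.009 times the library totals.

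The main fit was limma 3.58.1 (R 4.3.3) with an intensity trend on the deposited log2 values of 19048 genes with a mean of at least 10 normalized reads, group as the only term, two-sided, with Benjamini-Hochberg adjustment over all genes and a threshold of 0.05. Of these genes 7805 were called. The plan named the deposited log2 values, and no count model was fitted; voom on the recovered reads was an alternative. The fit was tested on simulated data. Replicates differed by 2.83 to 11.1 times counting noise (chi-square per degree of freedom), and each counted once. That spread does not show whether they were separate cultures.

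Members and lists were chosen with earlier results of these data known. Genes named by rule were the 6 largest falls and up to 6 largest rises among called members, the paralog pairs, RPSA and the stalk, RPL5, RPL11, RPL23 and RPS6, the 3 most abundant members, the target, and in each of 7 lists (128 genes) the 2 largest called changes each way. All other genes given with values were named after their values were seen. RefSeq windows are of GRCh38.p14 and were used for start sequence only. Gene positions are those of the table. A few genes are not reported here by name.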

Additional observations from a re-analysis of the deposited data

How the results depend on the processing

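Of the settings tried, 1 lowered the count of 35 called members by over 1.5 times: without an intensity trend in the variance prior it was 23 (22 lower, 1 higher). Restricting the members to those that overlap no other row left 10 calls of 25 genes, and to those that overlap nothing but small RNA rows 15 of 42, a choice made after seeing the data. Fewer genes enter both. At an adjusted p under 0.01, 5195 genes changed over the whole table, against 7805 at 0.05. The members' median was −0.092 under quantile normalization, with a median over all genes of −0.0076, and −0.060 with GC and length trends removed. The share of reads differed by −0.27 percentage points with pseudogene rows added, which counts more rows. Omitting single libraries gave 25 to 43 called members, 5803 to 7330 called genes, medians of −0.15 to −0.10 and share differences of −0.21 to −0.14 points.

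Signs turned with GC and length trends removed for RPL5 (0.019), RPS27 (0.025), RPL3 (0.028), RPL39 (0.020), RPLP2 (0.043) and NAP1L1 (−0.049), and for RPL5 under quantile normalization (0.026). RPL36A turned after thinning to the smallest library (−0.029) and with pseudogene reads added (−0.17). Omitting single libraries gave RPL36A −0.035 to 0.044 and RPS27 −0.16 to 0.042. Of these genes only NAP1L1 was called. The cause was not tested.

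Pairing of libraries by replicate number was not evident over all genes, where deviations of same-numbered libraries correlated at −0.15, −0.18 and 0.07. Over the members the correlations were −0.25, −0.54 and 0.57. With 3 libraries in each group, these values cannot exclude pairing. A fit with the replicate number as a block gave 6454 genes changed over the whole table and 30 members changed, 29 of them lower, with a median of −0.13.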
